A study of Homo sapiens with 21 samples.

Results

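GJA1, GJB2, GJB5, GJB6 and GJC1 are 5 genes of the connexin family, chosen by their symbols out of the 23201 gene symbols in the table of RNA-seq values. All 5 were detected in every library and all passed the filter on low values that left 13343 genes for testing. Connexins are membrane proteins that assemble into channels, and channels of neighboring cells dock to form gap junctions, through which ions and small metabolites pass directly from cell to cell. The family is divided by sequence into alpha (GJA), beta (GJB), gamma (GJC) and other classes, and a channel can be built from a single connexin or a mixture. In the breast, GJA1 is known from the basal, myoepithelial layer and GJB2 from the luminal layer.

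The cells were HMLE, an established, immortalized line of human mammary epithelium, seeded at the same starting density and treated with TGFβ, a cytokine that induces epithelial-mesenchymal transition (EMT), the shift of epithelial cells toward a migratory state. Libraries came from untreated cells (d0) and from cells on days 1, 4, 7, 10, 15 and 20 of TGFβ treatment (d1 to d20), with 3 libraries at each of the 7 timepoints, described by the study as biological triplicates. The dose is not given in the sources used here. All groups were of this single line, and untreated cells of the later days were not analysed here, so treatment and time in culture cannot be told apart.

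The values are the reads of a gene divided by 1 size factor per library, called normalized values below, and the libraries held between 18847917 and 22667754 reads. Differences are log2 differences of the normalized value plus 1, tested with limma over all 13343 genes, with Benjamini-Hochberg adjusted p-values and a threshold of 0.05. Outside d7, libraries of the same timepoint lay 0.21 to 0.24 apart (root mean square of log2 differences over the genes tested). At d7 the third library stood apart, at a mean distance of 0.46 from the other two. It lay nearer than they did to the means of d0, d1, d4, d10 and d20 and farther from that of d15. Differences of the 5 connexins between d7 and d0, d4 or d10 are therefore also given without it. Other values of d7 include it unless stated otherwise. The 6 epithelial markers (KRT5, KRT14, KRT8, KRT18, EPCAM and CDH1) were detected at every timepoint, and 3 were lower than on d0 on d1, 5 on d4, 2 on d7 and 4 on each of d10, d15 and d20. Those higher than on d0 numbered 1 on each of d1, d4, d7 and d20, 2 on d15 and 0 on d10. Of all genes tested, between 28.5% and 37.3% were lower on a day and between 31.3% and 39.2% higher. EPCAM was at 2106 ± 52.4 (SD, n = 3) on d0, 297 ± 50.3 on d7 and 402.4 ± 14.7 on d20, with log2 differences of -2.84 and -2.39. CDH1 was at 7195 ± 216 on d0 and 2868 ± 37.5 on d20 (-1.33), and KRT5 at 224349 ± 8441 on d0 and 101276 ± 1081 on d10 (-1.15). KRT8 was at 7955 ± 466 on d0 and higher on d15, at 11259 ± 206 (0.50, limma adjusted p = 1.25e-10). KRT14 was higher on 5 of the 6 days, on 2 with all libraries scaled to an equal total (the same total per library), and lower on all 6 with quantile normalization. With the same total per library, 4, 5, 4, 6, 4 and 5 epithelial markers were lower on the 6 days in order. The shares of all genes lower were then 47.2% to 50.8%. Without the third d7 library, 3 of these markers were higher on d7 (36.8% of all genes) and 2 were lower (34.4%). KRT5 (0.37, limma adjusted p = 3.19e-13) and CDH1 (0.11, adjusted p = 0.00531) were then among those higher. The immune markers PTPRC and CD3E and the endothelial marker CDH5 had at most 1 read in any library. CD68, another immune marker, was at 371 ± 3.08 on d0 and 803 ± 16.0 on d4 (1.11, limma adjusted p = 5.85e-12) and was higher on 5 of the 6 days, and on d10 its difference was 0.03 (adjusted p = 0.708), or -0.20 with the same total per library (adjusted p = 0.0129). The endothelial marker PECAM1 was at 41.3 ± 2.06 on d0 and was lower on all 6 days, by log2 differences between -1.43 and -2.10. VWF had at most 13 reads, and the adipocyte markers ADIPOQ and PLIN1 at most 13 and 26. VIM, FN1, CDH2 and ZEB1, markers of mesenchymal cells, were higher than on d0 on all 6 days of treatment. The part of these markers in the connexin values was not tested.

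In RefSeq, GJB2 and GJB6 are direct neighbors on chromosome 13, next to GJA3, and GJB5 lies on chromosome 1, while GJA1 is on chromosome 6 and GJC1 on chromosome 17. The 250 bases before the start of GJA1, GJB2 and GJB6 are shown because GJB2 and GJB6 had similar courses over the 7 timepoints, as the values further on show, and GJA1 did not follow them. They are read from RefSeq (GRCh38.p14), 5′ to 3′ on the strand of each gene, at chr6:121435396-121435645 (plus strand) for GJA1, chr13:20192939-20193188 (minus strand) for GJB2 and chr13:20230979-20231228 (minus strand) for GJB6. Capitals mark matches, on either strand, to the AP-1 motif TGANTCA and the GC box GGGCGG.
GJA1: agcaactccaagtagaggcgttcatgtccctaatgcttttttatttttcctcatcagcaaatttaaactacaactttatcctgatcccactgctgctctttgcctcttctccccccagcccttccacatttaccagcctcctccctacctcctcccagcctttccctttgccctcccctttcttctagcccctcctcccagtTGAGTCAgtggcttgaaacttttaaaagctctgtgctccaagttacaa
GJB2: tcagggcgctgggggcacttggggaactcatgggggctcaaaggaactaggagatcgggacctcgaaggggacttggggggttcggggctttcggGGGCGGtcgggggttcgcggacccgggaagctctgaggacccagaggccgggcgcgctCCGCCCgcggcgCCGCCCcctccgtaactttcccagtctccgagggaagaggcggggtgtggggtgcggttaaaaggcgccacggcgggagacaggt
GJB6: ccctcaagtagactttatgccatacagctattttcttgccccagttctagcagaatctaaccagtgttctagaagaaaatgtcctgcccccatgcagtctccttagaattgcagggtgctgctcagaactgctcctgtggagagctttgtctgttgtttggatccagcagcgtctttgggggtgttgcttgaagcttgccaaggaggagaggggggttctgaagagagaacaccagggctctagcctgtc
The GJA1 sequence held 1 AP-1 match, TGAGTCA, beginning 48 bases before the start, a motif present in 6.57% of the 35116 RefSeq promoters searched over the same length. The GJB2 sequence held 3 GC boxes, beginning 155, 97 and 85 bases before the start, and a GC box was present in 42.6% of promoters. The GJB6 sequence held neither motif. Of the other motifs searched on both strands (TATAAA, present in 10.7% of promoters, CACCTG in 17.5%, GTCTAGAC in 0.182% and the short SMAD motif CAGAC in 38.0%), there was only 1 match, of CAGAC, in GJB6. GC content was 70% in the GJB2 sequence, 48% in that of GJA1 and 50.8% in that of GJB6. These matches describe the letters of the windows and are not measurements of binding.

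Over the whole series, GJB2, GJB5 and GJB6 had their highest means on d1 and d10 and their lowest on d15, whereas GJA1 had its highest mean at d7 and its lowest on d20. Compared with d0, 4 of the 5 connexins were higher on d1 (31.3% of all genes tested were) and none was lower (28.5% of all genes). At d4, 3 were higher (36.9% of all genes) and 1 was lower (35.3%), and on d7, 3 were higher (34.6%) and none was lower (32.6%). Without the third d7 library, 2 were higher on d7 (36.8% of all genes) and 1 was lower (34.4%). At d10, 4 were higher (37%) and none lower (30.7%). At d15 none was higher (39.2%) and 3 were lower (37.3%), and on d20, 3 were higher (32.5%) and 1 was lower (30.2%). The counts of 0 were also 0 with edgeR and DESeq2 and at an unadjusted limma p under 0.05, except that 1 connexin, GJB6, was lower on d7 at an unadjusted p of 0.0342. The median log2 difference of the 5 was 0.82 on d1, 0.34 on d4, 0.38 on d7, 0.82 on d10, -0.28 on d15 and 0.22 on d20, while that of all genes tested lay between -0.00047 and 0.031. In bulk RNA, a change in the number of cells that express a gene and a change in RNA per cell cannot be told apart. With the same total per library, the median of all genes shifted by -0.14 to -0.20 against d0, and genes called on d1 were split into 2436 higher and 6692 lower, in place of 4174 higher and 3804 lower. The median of all genes under this scaling was -0.19 on d1, d4 and d7, and values given with this scaling below are read against that shift.

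**Figure D1:**
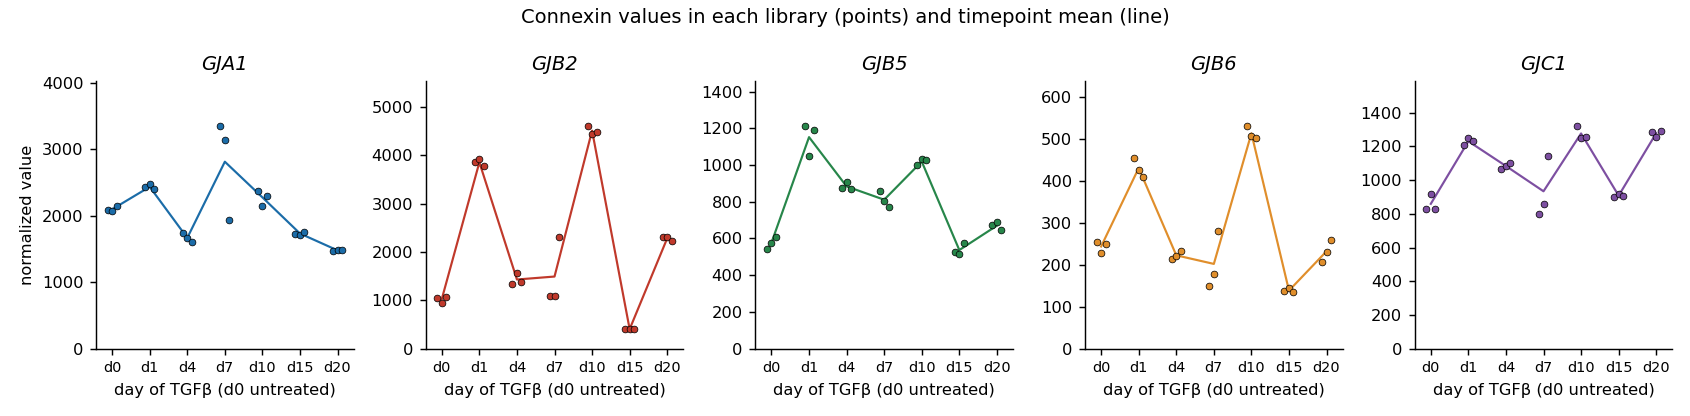
Normalized values of the 5 connexins (y axes, linear from 0, 1 scale per gene) in each library (points) and as the mean of 3 libraries (line) by day of TGFβ treatment (x axis, not to scale in time). GJB2, GJB5 and GJB6 were high on d1 and d10, and the third d7 library lay apart from the other two for GJA1, GJB2 and GJB6.

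**Figure D2:**
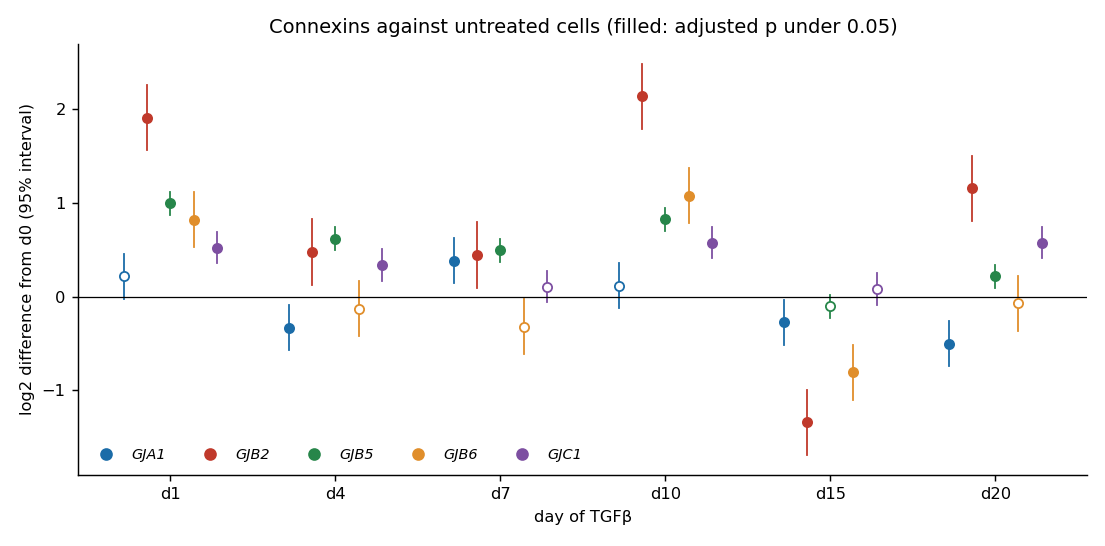
Log2 difference of each connexin from d0 (y axis) on each day of TGFβ (x axis), with 95% intervals from limma and filled points where the adjusted p was under 0.05. GJB2 spanned from 2.13 on d10 to -1.34 on d15, and with all libraries and the deposited size factors GJC1 and GJB5 had no call below d0.

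GJB2, a beta connexin best known for its role in the inner ear, had the widest range of the 5, at 11.2-fold between the means of d10 and d15. Its normalized values were 1056, 952 and 1077 on d0 and 3857, 3934 and 3778 on d1. They were 1343, 1565 and 1387 on d4 and 1084, 1084 and 2311 on d7. At d10 they were 4616, 4433 and 4487, on d15 399.9, 413 and 399.9, and on d20 2301, 2319 and 2236. All 3 libraries of d1, d10 and d20 lay above every d0 library, and all 3 of d15 lay below. GJB2 was higher than on d0 by 1.91 on d1 (SE 0.17, limma adjusted p = 2.77e-09), by 2.13 on d10 (adjusted p = 3.21e-10) and by 1.15 on d20 (adjusted p = 3.97e-06). It was lower by 1.34 on d15 (log2 difference -1.34, limma adjusted p = 2.61e-07). The smaller differences on d4 (0.48, limma adjusted p = 0.0152) and d7 (0.44, adjusted p = 0.0248) lost their calls with the same total per library, at 0.28 (adjusted p = 0.147) and 0.25 (adjusted p = 0.196). Without the third d7 library the d7 difference was 0.08 (limma adjusted p = 0.155), with that library alone at 2311 and the other two just above the highest d0 library. Single libraries also decided these calls elsewhere, since GJB2 was not called on d4 without the second d4 library (0.41, limma adjusted p = 0.0633) or the second d0 library (0.42, adjusted p = 0.0573), nor on d7 without the latter (0.39, adjusted p = 0.0844). In the order of the means, d10, d1, d20, d7, d4, d0, d15, the neighbors d10 and d1 did not differ beyond their spread (adjusted p = 0.319), nor did d7 and d4 (adjusted p = 0.885).

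GJB6, the neighbor of GJB2 and a partner with it in the mixed channels of the inner ear, followed a similar course at a lower level. Its values were 255, 228 and 249 on d0, 456, 428 and 409.9 on d1, and 215, 222 and 232 on d4. At d7 they were 149, 177 and 281, on d10 532, 507 and 503, on d15 138, 144 and 135, and on d20 208, 232 and 259. The d1 and d10 libraries were all above those of d0 and the d15 libraries all below, while the d20 libraries overlapped with them. GJB6 was higher than on d0 by 0.82 on d1 (SE 0.14, limma adjusted p = 3.98e-05) and by 1.07 on d10 (adjusted p = 8.54e-07), and its difference on d15 was -0.81 (adjusted p = 2.45e-05). The differences of -0.13 on d4 (limma adjusted p = 0.421), -0.32 on d7 (adjusted p = 0.0507) and -0.07 on d20 (adjusted p = 0.671) did not pass the test. On d7, GJB6 was called lower with the same total per library (-0.51, limma adjusted p = 0.00345) and with quantile normalization (-0.40, adjusted p = 0.0277). At d7 the call depended on the third library, at 281 above every d0 library, and without it the difference was -0.58 (limma adjusted p = 4.51e-07). With the same total per library GJB6 was also called lower on d4, at -0.33 (limma adjusted p = 0.047). The means of d0, d20, d4 and d7 followed each other in that order, and no pair of neighbors among them passed the test (limma adjusted p from 0.27 to 0.739).

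GJB5, a beta connexin known from skin and placenta, changed over a smaller range, 2.14-fold between d1 and d15. The values were 544, 577 and 610.5 on d0, 1214, 1051 and 1189.9 on d1, and 873, 908 and 869.5 on d4. They were 856, 805 and 773 on d7, 998, 1030.0 and 1029 on d10, 524, 513 and 574 on d15, and 671, 691 and 647 on d20. Every library of d1, d4, d7, d10 and d20 lay above every d0 library, and d15 overlapped with d0. GJB5 was higher than on d0 on 5 of the 6 days. The differences were 0.99 on d1 (SE 0.06, limma adjusted p = 4.43e-12), 0.61 on d4, 0.49 on d7, 0.82 on d10 and 0.22 on d20 (adjusted p = 0.00332). At d15 the difference was -0.10 (limma adjusted p = 0.117). The third d7 library was at 0.93 of the mean of the other two for GJB5, closer than for any of the other 4 connexins, and without it the d7 difference was 0.53 (limma adjusted p = 3.69e-10). With the same total per library the d20 call was lost (0.02, limma adjusted p = 0.811) and d15 was called lower (-0.26, adjusted p = 0.000295). GJB5 was also called lower on d15 without the first d0 library (-0.15, limma adjusted p = 0.0487) or the third d15 library (-0.15, adjusted p = 0.037).

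GJA1, the most widely expressed connexin and the main gap junction protein of the heart, moved on its own course. Its values were 2084, 2065 and 2138 on d0, 2426, 2481 and 2396 on d1, and 1737, 1659 and 1601 on d4. They were 3354, 3142 and 1938 on d7, 2375, 2148 and 2303 on d10, 1720.9, 1716 and 1759 on d15, and 1467, 1483 and 1484 on d20. The libraries of d4, d15 and d20 all lay below those of d0 and those of d1 and d10 all above, while on d7 the third library lay below d0 and the other two far above. GJA1 differed from d0 by -0.33 on d4 (SE 0.12, limma adjusted p = 0.0145), by -0.28 on d15 (adjusted p = 0.0367) and by -0.50 on d20 (adjusted p = 0.000751). It was higher on d7 by 0.38 (limma adjusted p = 0.00627), and this call was lost with the same total per library (0.19, adjusted p = 0.133), in a fit of d0 and d7 alone (adjusted p = 0.115) and without the first d7 library (0.24, adjusted p = 0.0629). Without the third d7 library the difference was 0.63 (limma adjusted p = 5.55e-17). The differences of 0.22 on d1 (limma adjusted p = 0.115) and 0.12 on d10 (adjusted p = 0.381) did not pass the test with all libraries. With the same total per library the d1 difference was 0.02 and that of d10 -0.11, neither of them called. With quantile normalization the d1 difference was 0.07 and that of d10 -0.07, again not called. The third d7 library enters the spread that all timepoints share. Without it, the differences of 0.22 and 0.12 with the deposited size factors were called (limma adjusted p = 2.73e-06 on d1 and adjusted p = 0.00468 on d10). The d15 call was lost when no filter on low values was used (limma adjusted p = 0.0528) and when any of the 6 libraries of d0 and d15 was left out (adjusted p from 0.0605 to 0.0861). In the order d7, d1, d10, d0, d15, d4, d20, only d0 and d15 differed among neighbors, and the whole range was 1.90-fold. The longest coding transcript of GJA1 shares 195 of its 3103 windows of 50 bases with the pseudogene GJA1P1, so some of its reads may be split between this gene and pseudogene, whereas the other 4 connexins shared no such window with another connexin or pannexin.

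GJC1, a gamma connexin known from the conduction system of the heart and from vascular smooth muscle, had the narrowest range, 1.49-fold. Its values were 830.3, 919 and 830.1 on d0, 1209, 1252 and 1232 on d1, and 1065, 1082 and 1105 on d4. They were 802, 859 and 1141 on d7, 1324, 1251 and 1258 on d10, 903, 917 and 904 on d15, and 1286, 1259 and 1292 on d20. The d1, d4, d10 and d20 libraries were all above those of d0, and d7 and d15 overlapped with d0. GJC1 was higher than on d0 by 0.52 on d1 (SE 0.08, limma adjusted p = 9.64e-06), by 0.34 on d4 (adjusted p = 0.000771), by 0.57 on d10 (adjusted p = 1.88e-06) and by 0.57 on d20 (adjusted p = 2.16e-06). Its differences on d7 (0.10, limma adjusted p = 0.256) and d15 (0.08, adjusted p = 0.364) did not pass the test. Without the third d7 library the d7 difference was -0.05 (limma adjusted p = 0.363), with the same total per library it was -0.09 (adjusted p = 0.36), and without the first it was 0.21 (limma adjusted p = 0.0209). With the same total per library the d4 call was lost (0.14, limma adjusted p = 0.14). The highest means were those of d20, d10 and d1, at 1279, 1277 and 1231, and neither neighboring pair among them differed beyond its spread (limma adjusted p = 0.986 and 0.649).

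Between consecutive timepoints the connexins often moved together. From d1 to d4 all 5 were lower (32% of all genes were lower and 32.9% higher), by 1.43 for GJB2 (log2 difference -1.43, limma adjusted p = 2.47e-07) and by as little as 0.18 for GJC1 (-0.18, adjusted p = 0.049), the latter not called without a filter, with the same total per library, with DESeq2 or with any library of the 2 timepoints left out (in the last case with limma adjusted p from 0.0694 to 0.114). From d4 to d7 only GJA1 was higher (0.71, limma adjusted p = 3.37e-05, against 25.5% of all genes) and only GJC1 lower (-0.23, adjusted p = 0.0196, 25.5%). The GJC1 call was lost in a fit of these timepoints alone (limma adjusted p = 0.188) and without the third d4 library (adjusted p = 0.0586), the first d7 library (adjusted p = 0.159) or the second (adjusted p = 0.0956). GJB5 differed by -0.12 (limma adjusted p = 0.0868) and was called lower without the first d7 library (-0.16, adjusted p = 0.0423). Without the third d7 library, the GJC1 difference was -0.38 (limma adjusted p = 6.52e-09) and that of GJA1 0.96 (adjusted p = 2.99e-22), GJB2 (-0.40, adjusted p = 5.96e-09) and GJB6 (-0.45, adjusted p = 4.97e-05) were also lower on d7 than on d4, and GJB5 differed by -0.09 (adjusted p = 0.199). From d7 to d10, 4 were higher (36.2% of all genes), led by GJB2 (1.69, limma adjusted p = 1.39e-08) and GJB6 (1.39, adjusted p = 1.97e-08), and GJA1 was lower (-0.27, adjusted p = 0.046, 35.2%). That GJA1 call was lost without a filter (limma adjusted p = 0.0671), in a fit of these timepoints alone (adjusted p = 0.252) and without any library of these timepoints except the third of d7 (adjusted p from 0.0547 to 0.343). Without that library, the d7 to d10 difference was -0.51 for GJA1 (limma adjusted p = 2.36e-14), 2.06 for GJB2, 1.66 for GJB6, 0.62 for GJC1 and 0.30 for GJB5 (adjusted p = 2.93e-05).

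From d10 to d15 all 5 connexins were lower (40.5% of all genes were lower and 39.3% higher), and for GJB2 and GJB6 this was the widest difference between consecutive timepoints. The differences were -3.48 for GJB2 (limma adjusted p = 6.05e-14), -1.88 for GJB6 (adjusted p = 7.84e-11), -0.92 for GJB5 (adjusted p = 5.92e-12), -0.49 for GJC1 (adjusted p = 8.96e-06) and -0.39 for GJA1 (adjusted p = 0.00413), the last of which did not pass with quantile normalization (-0.25, limma adjusted p = 0.0686). From d15 to d20, 4 were higher again (37.7% of all genes were higher and 36.3% lower), by 2.50 for GJB2 (limma adjusted p = 2.32e-11), 0.74 for GJB6, 0.49 for GJC1 and 0.32 for GJB5. GJA1 differed by -0.23 in this step (limma adjusted p = 0.0814), and without the third d7 library in the fit it was called lower (adjusted p = 6.4e-07). It was also called lower with the same total per library (-0.27, limma adjusted p = 0.0368) and with quantile normalization (-0.31, adjusted p = 0.0283). The same held in a fit of these timepoints alone (limma adjusted p = 1.11e-06) and with array quality weights (adjusted p = 9.36e-06). Genes of cell division also had their lowest means on d15. MKI67, a marker of cycling cells, was at 10671 ± 59.7 (SD, n = 3) on d0, 11288 ± 408 on d10, 3291 ± 83.3 on d15 and 12122 ± 226 on d20, and TOP2A and CCNB1 were likewise lower on d15 than on d0, with log2 differences of -1.22 and -1.85. At d1, where GJB2 was high, TOP2A (-0.64, limma adjusted p = 2.77e-12) and CCNB1 (-0.33, adjusted p = 0.0273) were lower than on d0. CCNB1 was not called on d1 with DESeq2 (-0.34, DESeq2 adjusted p = 0.0577). MKI67 differed by -0.15 on d1 (limma adjusted p = 0.29) and was called lower with the same total per library (-0.34, adjusted p = 0.0168), with quantile normalization (-0.37, adjusted p = 0.00656) and without the third d7 library in the fit (-0.15, adjusted p = 0.000144). The part of cell division in the connexin values was not tested.

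Levels of different genes are compared here per kilobase of the longest coding transcript (GENCODE release 29), which is 3152 bases for GJA1, 2362 for GJB2, 1355 for GJB5, 2133 for GJB6 and 7640 for GJC1. The summed value per kilobase of the 5 connexins was 1753 ± 51.5 (SD, n = 3) on d0, 3618 ± 45.6 on d1, 2033 ± 62.4 on d4, 2340 ± 99.9 on d7, 3792 ± 73.5 on d10, 1301 ± 27.3 on d15 and 2207 ± 25.8 on d20. Shares are given of this sum. GJA1 had the highest mean share of the 5 on d0, at 37.9% ± 0.43, and on d15, at 42.2% ± 0.32, and its share was 21.3% ± 0.50 on d1 and 19.0% ± 0.62 on d10. On d7 its mean share was also the highest, at 38.4% ± 11.5, with libraries from 25.2% to 45.7%. GJB2 contributed 24.8% ± 1.14 on d0 and 45.1% ± 1.06 on d1. Its share was 50.4% ± 0.21 on d10, 13.2% ± 0.45 on d15 and 43.8% ± 0.49 on d20, and it had the highest mean of the 5 on d1, d10 and d20. The mean share of GJB5 was 24.3% ± 1.03 on d0, 32.1% ± 0.22 on d4, the highest of the 5 that day, and 22.4% ± 0.49 on d20. The mean share of GJB6 lay between 4.03% and 6.52%, and that of GJC1 between 4.41% and 9.14%. Shares depend on the length used. Without dividing by length, that of GJC1 was 13.3% to 24.4% and that of GJB5 10.6% to 16.7%, below GJC1 on every day, and on d4 GJA1 (31.5%) exceeded GJB2 (27.0%). The 3 beta connexins together made up 55.6% ± 0.93 on d0, 74.2% ± 0.61 on d1, 76.6% ± 0.64 on d10, 48.6% ± 0.53 on d15 and 71.2% ± 0.44 on d20.

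**Figure D3:**
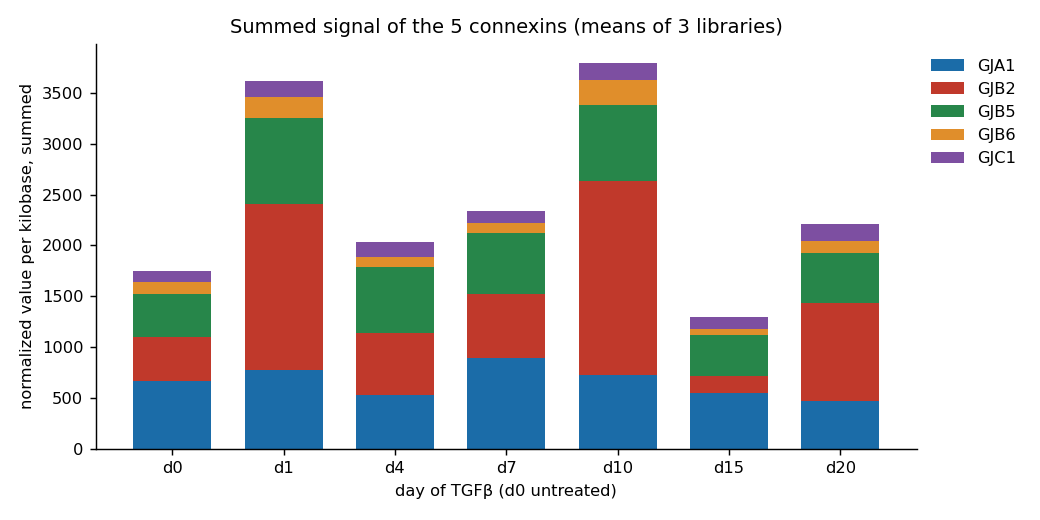
Summed normalized value per kilobase of the 5 connexins (y axis, from 0) by day of TGFβ (x axis), as means of 3 libraries, with a color for each of GJA1, GJB2, GJB5, GJB6 and GJC1. The stack is highest on d10 (3792) and d1 (3618) and lowest on d15 (1301), and the GJB2 share runs from 13.2% on d15 to 50.4% on d10.

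A ratio of a pair of genes within a library does not depend on the size factor of that library. Per kilobase, the log2 ratio of GJB2 to GJA1 was -0.61 ± 0.08 (SD, n = 3) on d0 and 1.08 ± 0.01 on d1. It was 0.20 ± 0.14 on d4, 1.41 ± 0.05 on d10, -1.68 ± 0.04 on d15 and 1.04 ± 0.03 on d20. GJB2 thus exceeded GJA1 2.11-fold on d1 and 2.65-fold on d10, while GJA1 exceeded GJB2 1.53-fold on d0 and 3.21-fold on d15. At d7 the libraries were split, at -1.21, -1.12 and 0.67, and the third library alone had more GJB2 than GJA1 per kilobase. GJB6 stayed below GJA1 in every library, with mean log2 ratios between -3.25 on d7 and -1.58 on d10. The ratio of GJB2 to GJB6, genes with similar courses, was 1.93 ± 0.03 on d0 and 3.15 ± 0.18 on d20, and GJB2 exceeded GJB6 2.63-fold per kilobase on d15 and 8.91-fold on d20.

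**Figure D4:**
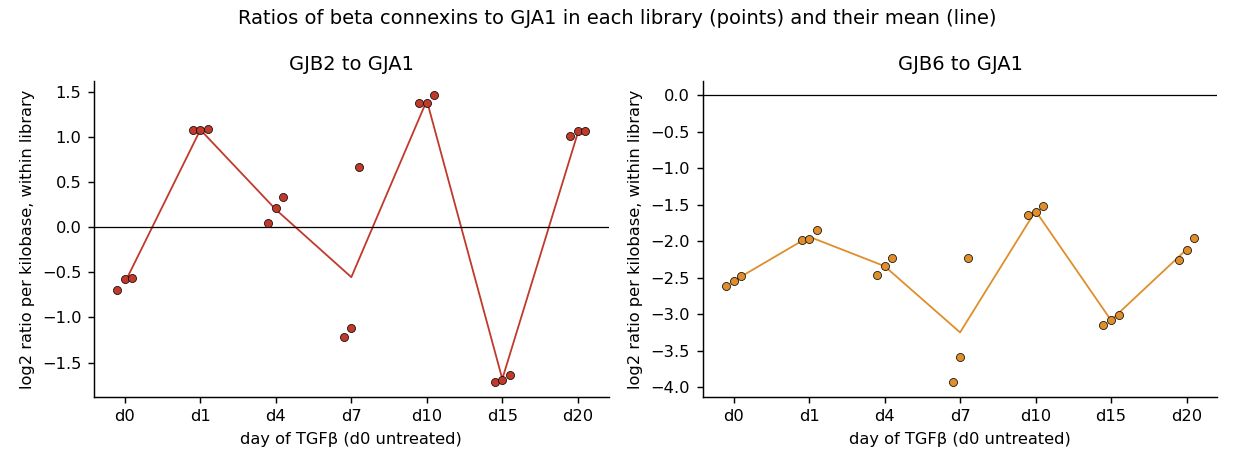
Log2 ratio per kilobase (y axes) of GJB2 to GJA1 and of GJB6 to GJA1 in each library (points) and as the mean (line) by day of TGFβ (x axis), with a line at equal levels. Per kilobase, GJB2 lay above GJA1 on d1, d4, d10 and d20 and below it on d0 and d15, and the third d7 library lay apart in both ratios.

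Across the 21 libraries, Pearson's r of log2 values was 0.91 between GJB2 and GJB6, 0.82 between GJB2 and GJC1, 0.81 between GJB2 and GJB5 and 0.74 between GJB5 and GJB6. GJA1 had r of 0.45 with GJB5, 0.26 with GJB6, 0.21 with GJB2 and -0.28 with GJC1. These are descriptions, since the libraries share 7 timepoints and the third d7 library moves several genes at once. By the same measure over the genes tested, the 3 most like GJB2 were DIAPH1, an actin nucleator (r = 0.99), PFN1, an actin-binding protein (0.98), and PRPS1, an enzyme of nucleotide synthesis (0.98), and those most like GJB6 were PPRC1 (0.97), the chaperone HSPA8 (0.96) and NR2C2AP (0.96). GJB6 ranked 256 among the genes most like GJB2, GJC1 ranked 1188 and GJB5 ranked 1274. Among the genes most like GJB5, GJB2 ranked 177 and GJB6 ranked 393. The nearest genes were CAV2, a caveolin (0.95), S100A2 (0.95) and FERMT1 (0.94) for GJB5. They were SGK223 (0.83), CALML3 (0.82) and ARL15 (0.82) for GJA1, and DRAP1 (0.97), C12orf75 (0.96) and LOC541471 (0.96) for GJC1.

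Of 13 other connexins examined, 12 were in the table, 8 had at most 3 reads in every library and 3 were tested, GJA3, GJA5 and GJD3, with means of at most 71.4 on any day. GJA3, the neighbor of GJB2, was at 56.1 ± 5.95 (SD, n = 3) on d0 and 22.0 ± 7.26 on d4. It was lower on d4 (-1.36, limma adjusted p = 2.67e-05), d7 (-1.06, adjusted p = 0.000458) and d15 (-0.88, adjusted p = 0.00198). GJA5, a connexin of the atrium and of arterial endothelium, was at 14.6 ± 4.91 on d0 and 50.4 ± 11.5 on d4, and was higher on d4 (1.76, limma adjusted p = 0.000362). Its d7 difference (0.99, limma adjusted p = 0.0294) was not called with the same total per library (0.81, adjusted p = 0.0675) or with quantile normalization (0.71, adjusted p = 0.0916). GJD3 was lower on d1 (-0.91, limma adjusted p = 0.00123), d4 (-1.40, adjusted p = 7.14e-06) and d10 (-1.17, adjusted p = 7.6e-05). On d15, 1 of the 3 was called lower (37.3% of all genes were). All 3 were with the same total per library (47.2% of all genes) or with quantile normalization (40.2%). Both pannexins that could be tested, relatives in channel structure that do not usually form gap junctions, were higher on all 6 days, PANX1 by 0.22 to 0.73 and PANX2 by 0.73 to 1.89, and only the d15 difference of PANX1 was not called with the same total per library (0.06, limma adjusted p = 0.196). Between 31.3% and 39.2% of all genes were higher on a day.

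**Figure D5:**
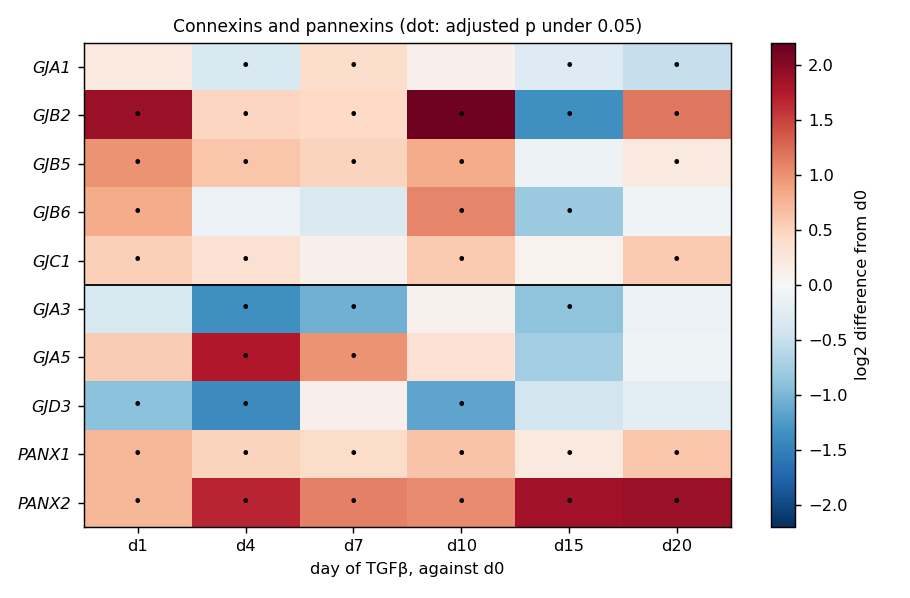
Log2 difference from d0 (color, red higher and blue lower) of the 5 connexins (above the line) and GJA3, GJA5, GJD3 and the pannexins tested (below it) on each day of TGFβ (x axis), with a dot where the limma adjusted p was under 0.05. GJB2 is deep red on d1 and d10 and blue on d15, while PANX1 and PANX2 are red on every day.

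Of 15 genes whose proteins bind, traffic or modify connexins, 14 were tested. Against d0, the counts were 11 higher and 1 lower on d1, 10 and 1 on d4, 10 and 0 on d7, 11 and 1 on d10, 9 and 3 on d15, and 9 and 2 on d20, and with the same total per library they were 8 and 3, 7 and 4, 8 and 3, 8 and 3, 5 and 5, and 9 and 5. Of all genes tested, between 31.3% and 39.2% were higher on a day and between 28.5% and 37.3% lower, and with the same total per library 18.3% to 30.3% and 47.2% to 50.8%. Among those with a log2 difference of at least 1 on some day, SMURF2, a ubiquitin ligase, was at 830.2 ± 35.7 (SD, n = 3) on d0, 2089 ± 22.8 on d1, 2449 ± 70.1 on d10, 1009 ± 17.6 on d15 and 1975 ± 91.7 on d20. Its differences from d0 were 1.33 on d1, 1.56 on d10, 0.28 on d15 and 1.25 on d20 (limma adjusted p from 1.05e-14 to 0.000635), and the d15 difference was not called with the same total per library (0.12, adjusted p = 0.12). NEDD4, a ubiquitin ligase that acts on GJA1 protein, was higher on all 6 days, by 0.72 on d7 to 1.18 on d20. SRC, a kinase that phosphorylates GJA1, was higher by 1.30 on d4 (limma adjusted p = 7.66e-16) and 0.63 on d20. PRKCA, a protein kinase C, was 1.31 above d0 on d20 (limma adjusted p = 5.3e-17). The part of these genes in the connexin values was not tested.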

How the data were processed

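RNA was sequenced from HMLE cells at 7 timepoints, with 3 libraries each. For each gene and library the deposited value is a normalized signal, made by the authors from the reads of the gene by dividing with the size factor of the library and rounding to 2 decimals. Whole reads were recovered from 100% of the values (within 0.0051 plus 2e-06 of the value), with totals between 18847917 and 22667754 reads per library. The submitters' processing notes name STAR 2.7, Salmon 1.4 and the hg19 build, and the table holds gene symbols and no coordinates.

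Groups were taken from the labels. Genes with a mean of at least 10 over the 21 libraries (13343) were compared on the log2 scale after adding 1, using limma 3.58.1 (R 4.3.3) with a trended prior variance, 1 mean per timepoint and Benjamini-Hochberg adjustment within each contrast. The pseudocount understates changes of low genes. No test was stated by the study for these libraries, and the design assumed normalized counts, for which this test was kept. The smallest chi-square per gene between libraries of a timepoint was 1.37, above sampling noise alone, so no pair was counted as 1 sample. This does not tell cultures from technical repeats. Promoters came from RefSeq (GRCh38.p14), lengths from GENCODE release 29, and GJB5 and GJC1 had no promoter entry. Alternative settings were a larger pseudocount (10), no filter, the same total per library, quantile normalization, edgeR 4.0.16, DESeq2 1.42.0, fits of 2 timepoints, array quality weights and each library left out. Leaving out the third d7 library from every contrast was added after seeing the data. The script was tested on simulated data. The connexins and the gene lists were chosen with earlier results of these data known. Genes named are connexins and pannexins tested, partner genes with a log2 difference of at least 1 on some day, the 3 genes most like each connexin, and markers. Some other genes of the connexin family are not reported here. Plots were made in Python 3.11.15 (matplotlib 3.10.9).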

Additional observations from a re-analysis of the deposited data

Results flagged for a closer look

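The difference from d0 varied between days for all 5 connexins. For each gene, the days with the highest and lowest difference from d0 were chosen from these values and compared directly. The adjusted p-values of these pairs do not allow for this choice, which favors a difference. For GJB2, d10 lay above d15 by 3.48 (log2, SE 0.17, limma adjusted p = 6.05e-14), with 3 of 3 libraries of d10 above every library of d15. For GJB6 the same difference was 1.88 (SE 0.14, limma adjusted p = 7.84e-11). For GJA1, d7 lay above d20 by 0.89 (SE 0.12, limma adjusted p = 1.56e-06), and the third d7 library, at 1938, was also above the d20 libraries. For GJB5, d1 lay above d15 by 1.10 (SE 0.06, limma adjusted p = 5.33e-13), and for GJC1, d20 lay above d15 by 0.49 (SE 0.08, adjusted p = 1.05e-05). The libraries of the paired days did not overlap for any of the 5. The choice of each gene's extreme days favors this, and the share over all genes was not counted. GJB2, GJB6 and GJA1 were called above d0 on the first of these days and below it on the second.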

How the results depend on the processing

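Of 825 values of single connexins (55 differences under the alternatives), 740 stayed on the same side of zero and of the threshold, 29 were called only under the alternative, 42 lost their call and 14 that were called in neither fit had the other sign, and of 330 counts of connexins called (22 counts), 303 were within 1.5 times the main count. With the same total per library, 1 connexin was higher (25.8% of all genes) and 2 were lower (49.5%) at d4 than at d0. At d7, 1 was higher (22.7%) and 1 lower (49.1%) than at d0, and 1 was lower at d20 than at d15 (39.1%). With fits of 2 timepoints only, 1 was higher at d7 than at d0 (28.2%) and 0 were lower at d7 than at d4 (16.5%). In the same fits, 0 were lower at d10 than at d7 (29.9%) and 1 was lower at d20 than at d15 (38.6%). With no filter on low values, 0 were lower at d10 than at d7 (26%). With quantile normalization, 1 was lower at d7 than at d0 (39.8%) and 1 at d20 than at d15 (38%). With array quality weights these counts were 1 (35.4%) and 1 (38.7%), and 4 were lower at d7 than at d4 (31.8%). With the third d7 library left out of every contrast, an alternative chosen after seeing the data, they were 1 (34.4%), 1 (38.2%) and 3 (30.1%). With each library left out in turn, the lower counts ranged from 0 to 1 at d7 against d0, from 0 to 3 at d7 against d4 and from 0 to 1 at d10 against d7. Shares of all genes are not given for those fits. The cause of these changes was not tested, except that the third d7 library widens the spread shared by all timepoints. No paired analysis was possible because the libraries of a timepoint share a header without replicate numbers. Depth limits GJB6 most, whose lowest normalized value in any library was 135.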
